A study of Mus musculus with 4 samples.

Results

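Fatty acids are burned in mitochondria by a spiral of reactions that follows their import as carnitine esters, and in peroxisomes when the chains are very long. The colonic epithelium is known for drawing much of its energy from butyrate, a short-chain fatty acid made by gut bacteria and oxidised by the same spiral. The nuclear receptor PPAR alpha and the coactivator PGC-1 alpha drive transcription of many genes of the pathway, and genes of fatty acid uptake, lipid droplets and fuel choice are among the known PPAR targets. The genes examined here are 33 named for fatty acid oxidation, ketone body metabolism and PPAR targets, out of 18193 genes named on the arrays. Among a gene's probe sets annotated to it alone, the one brightest on average over the 4 arrays was used. Of the 33 genes, 32 had such a probe set, and Ucp2 was not analysed here. A filter on dim probe sets (above the array's median on at least 1 array) kept 31 of the 32 and 12177 genes in all. Fabp1 did not pass it.

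Expression was measured with Affymetrix arrays on total RNA of distal colon from 4 mice, 1 per group. The wild-type (WT) mice carried intact Adamts12, which encodes a secreted metalloprotease, and the knockout (KO) mice were deficient in it. In each genotype 1 mouse was untreated and 1 received dextran sodium sulfate (DSS), which injures the colonic epithelium, at 2% in the drinking water. The series text gives 7 days of DSS and the treatment protocol 8 days, each followed by 1 day without it, and treatment began at 8 to 10 weeks of age. The labels used here do not give the strain, the sex or the deleted part of Adamts12. A difference between 2 arrays therefore has no replicate check, and differences are given on the log2 scale, where 1 is 2-fold. In bulk tissue, fewer cells of a type and less RNA per cell cannot be told apart.

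The targeted gene was dim, with Adamts12 at 2.18 on both WT arrays and at 1.42 and 1.41 on the untreated and DSS KO arrays (log2), near the background limit of 1.39. Whether its probes lie in the deleted part is not known here, so these values check the labels only weakly. Genes of position along the gut set the untreated KO array apart. Of 13 measured markers of small intestine and proximal colon, 9 passed the filter. Of the 9, 8 were at least 2-fold higher on the untreated KO than on the untreated WT array, against 3.42% of all genes. Slc10a2 and Slc51a passed the filter through the untreated KO array alone and could only be higher there. The mean log2 level of the 13 was 3.22 on the untreated WT, 5.62 on the untreated KO, 3.60 on the WT DSS and 3.03 on the KO DSS array. The bile acid transporter gene Slc10a2 was above background on the untreated KO array alone, at 4.64, and lactase (Lct) on none. The 11 posterior and distal markers had a mean level of 3.55 on the untreated KO array, and of 6.85, 5.40 and 5.78 on the untreated WT, WT DSS and KO DSS arrays. Hoxb13, a posterior Hox gene, stood at 9.47, 2.48, 7.84 and 8.40 on the untreated WT, untreated KO, WT DSS and KO DSS arrays, so the untreated KO array had little of this marker of its labelled tissue. General epithelial markers, 10 of 10 measured, had mean levels between 10.65 and 10.85 on the 4 arrays. For the counts that use the untreated KO array, those of the KO DSS array minus the untreated WT array are therefore given as well.

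**Figure D1:**
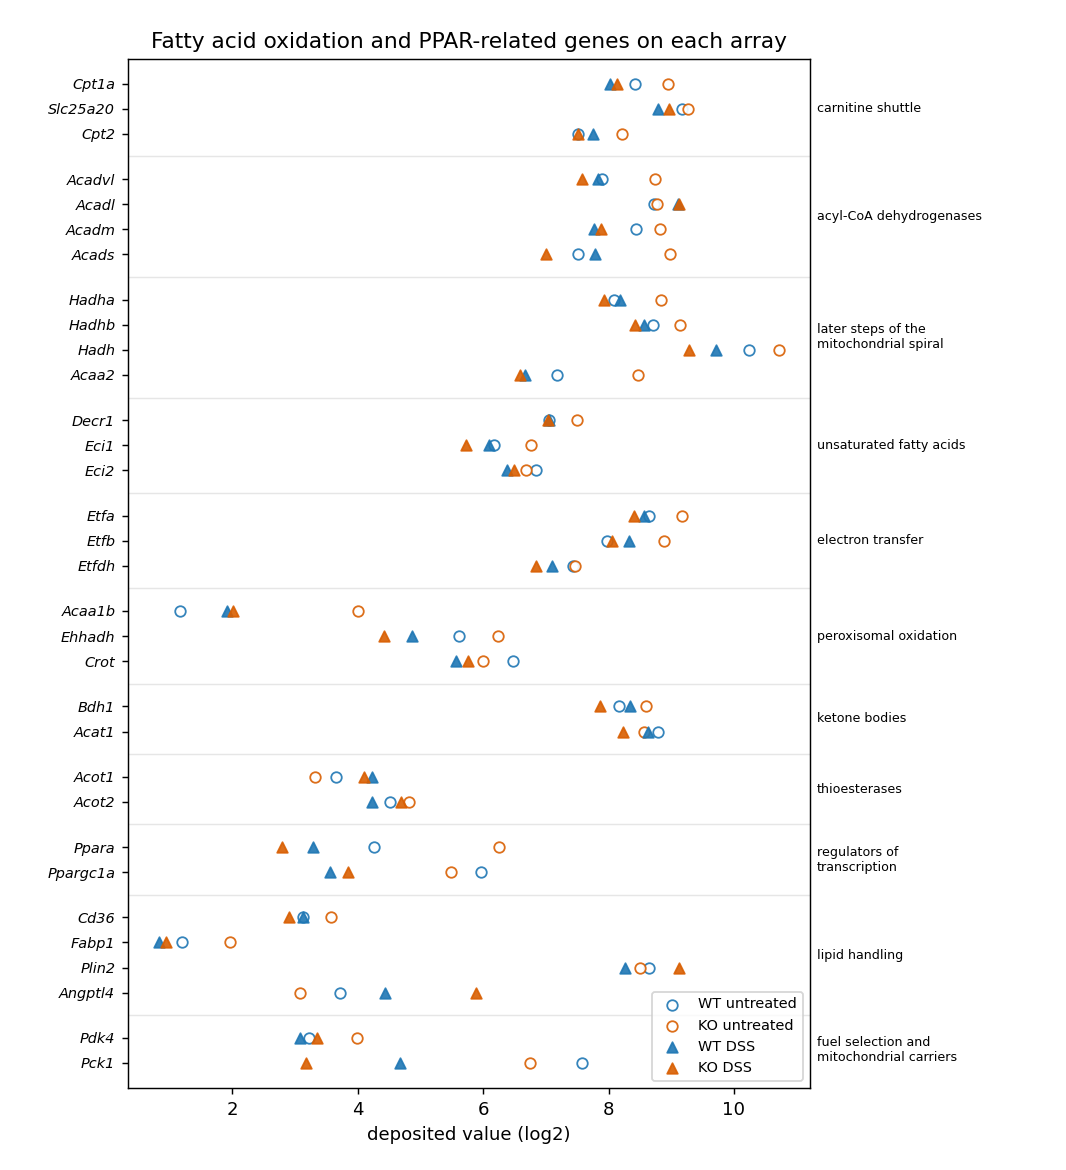
Deposited log2 value of each of the 32 measured genes (rows, grouped by role) on each array, with open circles for untreated, filled triangles for DSS, blue for WT and orange for KO. Positions are not comparable between genes, since each is a different probe set; within rows, the untreated KO circle is the rightmost symbol for most mitochondrial enzymes, and both triangles lie far left of both circles for Ppargc1a and Pck1.

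Across the 31 genes, the untreated KO array held the highest value for 22, while 29.2% of all 12177 genes were highest there. For 3 of the 22 (Acaa1b, Cd36 and Pdk4) this was fixed by the filter, which they passed through that array alone. For 16 of the 31, both DSS arrays lay below both untreated arrays, against 22.0% of all genes. For Ppara, among the 16, this was fixed by the filter, which it passed through the untreated arrays alone. For 3 (Acadl, Acot1 and Angptl4) both DSS arrays lay above both untreated ones, against 26.4% of all genes. The values of 19 of the 31 stayed within a 2-fold range over all 4 arrays. The share of all genes that did so was not computed, so this count has nothing to be set against.

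Ppargc1a and Pck1 were the only members at least 2-fold lower with DSS in both genotypes, 2 of 31, against 1.32% of all genes. Ppargc1a encodes PGC-1 alpha, the coactivator of mitochondrial biogenesis and oxidation genes. Its log2 value was 5.96 on the untreated WT, 5.49 on the untreated KO, 3.55 on the WT DSS and 3.85 on the KO DSS array. Both DSS arrays lay well below both untreated arrays, with differences of -2.41 (WT) and -1.64 (KO). The 4 other Ppargc1a probe sets were lower with DSS as well, at -2.35 to -1.90 in WT and -1.82 to -1.26 in KO. Pck1 encodes cytosolic phosphoenolpyruvate carboxykinase, the committed enzyme of gluconeogenesis and of glycerol supply for fat storage. Its value was 7.57 on the untreated WT, 6.75 on the untreated KO, 4.68 on the WT DSS and 3.18 on the KO DSS array. The DSS differences were -2.89 in WT and -3.57 in KO, and a second bright Pck1 probe set gave -2.82 and -2.45. Pck1 was also lower on the KO than on the WT array both without DSS (-0.82) and with DSS (-1.50). The second probe set gave -0.85 and -0.48, so the 2-fold difference with DSS rested on the chosen probe set.

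In the WT pair, these were the only members at least 2-fold lower, 2 of 31, against 4.94% of all genes, and 0 of 31 were at least 2-fold higher, against 5.82%. Limma's test over the 4 arrays, with genotype as a covariate, gave Ppargc1a a DSS difference of -2.02 (SE 0.31) and Pck1 one of -3.23 (SE 0.29), each lower in both genotypes. Both had an adjusted p of 0.364, which missed the threshold of 0.05 and was the smallest value among all genes. The model has 1 residual degree of freedom, and an exact permutation of 2 arrays against 2 cannot go below a two-sided p of 0.333.

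The promoters of these genes are shown because they moved together and because a script found the letters ACGTCA, part of the cyclic AMP response element, in both. The search, chosen after the expression values were seen, covered both strands of the 250 bases before the annotated start in RefSeq (GRCm38.p6). Of 30 windows of 29 members, 3 held ACGTCA, those of Pck1, Ppargc1a and Ehhadh, against 6.47% of all 32851 windows. The capitals mark the match, and Ehhadh, a peroxisomal enzyme gene described further on, has it on the opposite strand.
Pck1 (chr2:173152823-173153072, + strand, match 91 to 86 bases before the start): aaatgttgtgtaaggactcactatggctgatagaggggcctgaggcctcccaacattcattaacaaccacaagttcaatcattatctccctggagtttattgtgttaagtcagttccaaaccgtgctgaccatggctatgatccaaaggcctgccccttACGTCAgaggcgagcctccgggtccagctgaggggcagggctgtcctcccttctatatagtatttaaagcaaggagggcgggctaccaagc
Ppargc1a (chr5:51567726-51567975, - strand, match 50 to 45 bases before the start): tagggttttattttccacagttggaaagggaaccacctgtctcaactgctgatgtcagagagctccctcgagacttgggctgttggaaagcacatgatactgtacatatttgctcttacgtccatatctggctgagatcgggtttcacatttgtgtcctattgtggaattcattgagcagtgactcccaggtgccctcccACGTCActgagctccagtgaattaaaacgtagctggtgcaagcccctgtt
Ehhadh (chr16:21787835-21788084, - strand, match 179 to 174 bases before the start): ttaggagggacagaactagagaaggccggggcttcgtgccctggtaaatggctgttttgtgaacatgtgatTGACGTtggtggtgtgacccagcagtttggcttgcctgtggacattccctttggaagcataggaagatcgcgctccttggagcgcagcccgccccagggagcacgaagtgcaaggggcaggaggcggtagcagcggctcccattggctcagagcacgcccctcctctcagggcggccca
A match is only a run of letters in this window, and no binding was measured. The direct repeat bound by PPAR and its partner RXR, 2 copies of AGGTCA with 1 base between them, was searched likewise with up to 1 mismatch. It matched 1 of the 30 windows, that of Fabp1, and 0.484% of all windows. Read along the gene's strand, the Fabp1 match was TGACCTATGGCCT, 67 to 55 bases before the start, so the repeat lay on the opposite strand.

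Ppara, which encodes PPAR alpha itself, had its highest value on the untreated KO array. It stood at 4.26 on the untreated WT, 6.25 on the untreated KO, 3.29 on the WT DSS and 2.79 on the KO DSS array. Both DSS arrays lay below both untreated arrays, with differences of -0.97 in WT and -3.46 in KO. Ppara passed the filter through the untreated arrays alone, so it could only be lower with DSS. The untreated KO array was higher than the untreated WT by 1.99, whereas with DSS the difference between the genotypes was -0.50. The value on the KO DSS array minus that on the untreated WT array was -1.47. The other 2 Ppara probe sets were higher on the untreated KO array as well, by 2.84 and 2.68. Limma gave Ppara a DSS difference of -2.22 (SE 0.70, lower in both genotypes, adjusted p = 0.401).

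The carnitine shuttle carries long-chain acyl groups into mitochondria. Cpt1a, the outer membrane transferase and main control point, stood at 8.42 and 8.95 on the untreated WT and KO arrays and at 8.02 and 8.13 on the WT and KO DSS arrays. Slc25a20, the carnitine-acylcarnitine carrier, stood at 9.17 and 9.26 without and at 8.79 and 8.97 with DSS. Both genes were lower on each DSS array, by less than 2-fold (Cpt1a -0.40 in WT and -0.82 in KO, Slc25a20 -0.38 and -0.29). Cpt2, the inner membrane transferase, was at 7.52, 8.21, 7.75 and 7.51 on the untreated WT, untreated KO, WT DSS and KO DSS arrays, so that only the untreated KO array stood out. The other 2 Cpt1a probe sets had the opposite sign for DSS in KO (0.04 and 0.51), and were lower on the untreated KO than on the untreated WT array.

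The acyl-CoA dehydrogenases open each turn of the spiral and differ in the chain length they accept. Acads, which acts on short chains such as butyryl-CoA, varied most among the 4, standing at 7.52 on the untreated WT, 8.98 on the untreated KO, 7.79 on the WT DSS and 7.01 on the KO DSS array. DSS and untreated arrays overlapped, because the untreated WT value lay between the values of the DSS arrays. The DSS difference was 0.27 in WT and -1.97 in KO, and the KO DSS value minus the untreated WT value was -0.51. Acadvl, for very long chains, stood at 7.89, 8.74, 7.83 and 7.58 on the untreated WT, untreated KO, WT DSS and KO DSS arrays, with a difference of -0.06 in WT and -1.16 in KO. Acadm, for medium chains, was lower with DSS by a like amount in each genotype, from 8.44 to 7.76 in WT and from 8.82 to 7.88 in KO. Limma put that difference at -0.81 (SE 0.24, adjusted p = 0.391). Acadl, for long chains, went the other way, from 8.72 to 9.11 in WT and from 8.78 to 9.12 in KO.

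Genes of the later steps were also highest on the untreated KO array. Acaa2, the mitochondrial thiolase, stood at 7.17 on the untreated WT, 8.47 on the untreated KO, 6.67 on the WT DSS and 6.58 on the KO DSS array. Its DSS difference was -0.50 in WT and -1.89 in KO, and its other 2 probe sets gave -0.14 and -0.29 in WT and -2.50 and -1.82 in KO. Hadh, the hydroxyacyl-CoA dehydrogenase for medium and short chains, stood at 10.24, 10.72, 9.71 and 9.28 in the same order of arrays. Both DSS arrays lay below both untreated arrays for these genes. For Hadh the difference was -0.53 in WT and -1.44 in KO, and limma's was -0.98 (SE 0.31, adjusted p = 0.402). Hadha and Hadhb encode the subunits of the trifunctional protein for long chains. Hadha was at 8.09, 8.83, 8.18 and 7.93, and Hadhb at 8.71, 9.14, 8.56 and 8.42, with the untreated KO array the highest for each. The other 2 Hadhb probe sets above the filter disagreed, being lower on the untreated KO (7.27 and 4.55) than on the untreated WT array (8.29 and 4.87). The mean over the gene's probe sets gave a KO minus WT difference of -0.30 without DSS, against 0.43 for the chosen one, so its direction is uncertain.

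Other enzymes handle double bonds or pass on electrons. Decr1, the dienoyl-CoA reductase, lay between 7.03 and 7.05 on 3 arrays and at 7.50 on the untreated KO array. Eci1, an enoyl-CoA isomerase, stood at 6.18 and 6.77 on the untreated WT and KO arrays and at 6.09 and 5.72 with DSS, a DSS difference of -0.09 in WT and -1.05 in KO. Its relative Eci2 differed by -0.47 and -0.20 and, unlike the others, was highest on the untreated WT array (6.85). Etfa and Etfb, the subunits of the electron transfer flavoprotein, were highest on the untreated KO array, at 9.17 and 8.89, and on the other 3 arrays Etfa lay between 8.40 and 8.65 and Etfb between 7.97 and 8.33. Etfdh, which hands these electrons to the respiratory chain, differed by -0.33 (WT) and -0.63 (KO) with DSS.

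Taken as a group, the 17 mitochondrial enzymes and carriers of the shuttle, spiral and electron transfer had a median DSS difference of -0.09 in WT, with 0 of 17 at least 2-fold apart. In KO the median was -0.82, with 16 of 17 below 0 and 5 (Acadvl, Acads, Hadh, Acaa2 and Eci1) at least 2-fold lower, against 6.67% of all genes. With the untreated WT array in place of the untreated KO array, the KO median was -0.29. In that comparison 0 of 17 were at least 2-fold lower, against 5.03% of all genes, so the count lies near that share.

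Peroxisomal genes included the member with the largest KO excess. Acaa1b, a peroxisomal thiolase, was not above background on the untreated WT array and stood at 4.0 on the untreated KO, 1.91 on the WT DSS and 2.01 on the KO DSS array. It was thus at least 2.61 higher on the untreated KO array, and passed the filter through that array alone. Probe sets shared by Acaa1b and its near-identical relative Acaa1a were also highest there, at 7.27 and 7.89 against 6.29 and 6.87 on the untreated WT array. Ehhadh, the bifunctional peroxisomal enzyme whose promoter is shown above, stood at 5.62 on the untreated WT, 6.23 on the untreated KO, 4.86 on the WT DSS and 4.42 on the KO DSS array. Both DSS arrays lay below both untreated arrays, at -0.76 (WT) and -1.81 (KO), and the KO DSS value minus the untreated WT value was -1.20. Limma's DSS difference for Ehhadh was -1.28 (SE 0.36, adjusted p = 0.389). Crot, which prepares peroxisomal products for export, differed by -0.90 (WT) and -0.23 (KO) with DSS.

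For the ketone body genes, the chosen probe sets differed by less than 2-fold in every pair. Bdh1, hydroxybutyrate dehydrogenase, stood at 8.16 and 8.59 on the untreated WT and KO arrays and at 8.34 and 7.87 on the WT and KO DSS arrays. Its other probe set was at least 2-fold lower for DSS in KO (-1.05) and for KO against WT with DSS (-1.08), where the chosen one gave -0.72 and -0.47. Acat1, the mitochondrial acetoacetyl-CoA thiolase, was lowest on the KO DSS array, at 8.23, with 8.56 to 8.79 on the others. A dimmer Acat1 probe set was lowest there too, at 4.72. Another bright one was instead lowest on the untreated KO array, at 7.63, and stood at 7.68 on the KO DSS array. The acyl-CoA thioesterase gene Acot1 was higher with DSS, from 3.66 to 4.23 in WT and from 3.32 to 4.10 in KO, and Acot2 differed by -0.29 and -0.12. Acot1 and Acot2 are near-identical copies, and a probe set shared by both gave 3.54, 3.89, 4.38 and 3.61 on the untreated WT, untreated KO, WT DSS and KO DSS arrays, so the split between them is uncertain.

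Among genes of lipid handling, Angptl4 was the only one at least 2-fold higher with DSS in KO. It encodes a secreted inhibitor of lipoprotein lipase that responds to PPARs and also to hypoxia. Its value was 3.72 on the untreated WT, 3.08 on the untreated KO, 4.44 on the WT DSS and 5.89 on the KO DSS array. Both DSS arrays lay above both untreated arrays, at 0.72 (WT) and 2.81 (KO), and the KO DSS array exceeded the WT DSS array by 1.45. The probe set can match several transcripts, and the other Angptl4 probe set was not above background on any array (0.49 to 0.92). Limma's DSS difference was 1.76 (SE 0.60, higher in both genotypes, adjusted p = 0.419). The 6 measured neutrophil markers had mean levels of 2.27, 2.60, 3.64 and 4.83 on the untreated WT, untreated KO, WT DSS and KO DSS arrays, and S100a8 stood at 1.61, 1.89, 5.81 and 8.30. Of the 4 that passed the filter, the WT pair had 2 (S100a8 and S100a9) and the KO pair 3 (these and Csf3r) at least 2-fold up with DSS. The shares of all genes were 5.82% and 10.7%. S100a8 and S100a9 passed the filter through the DSS arrays alone and could only be higher with DSS. Elane passed it through the untreated KO array alone. Like Angptl4, the mean over the 6 neutrophil markers was highest on the KO DSS array, although Elane and Cxcr2 were highest on the untreated KO array. The part of the neutrophil markers in the Angptl4 values was not tested.

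Plin2, which coats lipid droplets, was bright on all arrays, at 8.64 and 8.50 on the untreated WT and KO arrays, 8.26 on the WT DSS and 9.12 on the KO DSS array. Its DSS difference was -0.38 in WT and 0.62 in KO. The fatty acid transporter gene Cd36 lay between 2.91 and 3.58, and its 2 probe sets above the filter disagreed in sign in KO. Fabp1, the fatty acid binding protein of liver and proximal intestine, stood at 1.96 on the untreated KO array and was not above background on the other 3. Pdk4, the kinase that turns off pyruvate dehydrogenase, was at 3.99 on the untreated KO array and between 3.08 and 3.35 on the others. Cd36 and Pdk4, like Acaa1b, passed the filter through the untreated KO array alone.

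**Figure D2:**
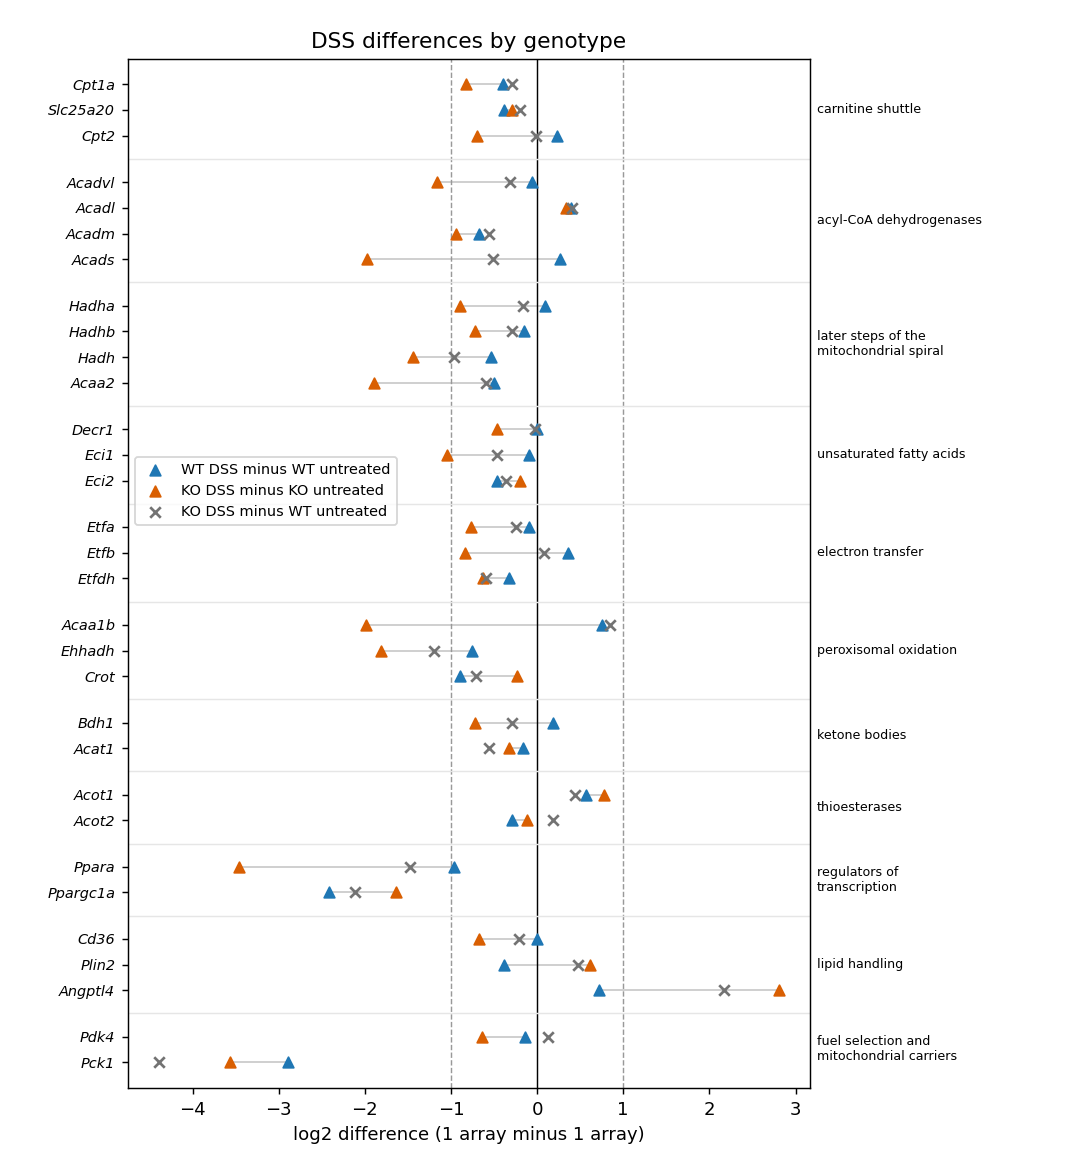
Log2 difference of DSS against untreated for the 31 genes kept, in WT (blue triangles) and KO (orange triangles), with the KO DSS array against the untreated WT array as grey crosses and 2-fold marked by dashed lines. Ppargc1a and Pck1 lie left of the 2-fold line for all 3 differences, while for Acads, Acaa2 and Acadvl the orange triangle lies far left and the cross lies within 2-fold.

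In the KO pair, 10 of 31 members were at least 2-fold lower with DSS, against 6.67% of all genes, and 1 (Angptl4) was higher, against 10.7%. The 10 were Acadvl, Acads, Hadh, Acaa2, Eci1, Acaa1b, Ehhadh, Ppara, Ppargc1a and Pck1. The median member difference was -0.72, and the median over all genes was 0.06. Acaa1b and Ppara are among the 10 and could only be lower there, since neither passed the filter through a DSS array. Of the 10, 8 were higher on the untreated KO than on the untreated WT array. With the untreated WT array as the control, 4 of 31 were at least 2-fold lower (Ehhadh, Ppara, Ppargc1a and Pck1), against 5.03% of all genes, 1 was higher (Angptl4), against 6.11%, and the median was -0.29. Ppara could only be lower in this comparison too. The values of the position markers given above moved with the KO difference, and their part in it was not tested.

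By limma, 0 of 31 members passed an adjusted p of 0.05 for DSS, as did 0 of 12177 genes. At an unadjusted p under 0.05 there were 6 members lower (Acadm, Ehhadh, Hadh, Pck1, Ppara and Ppargc1a), against 4.18% of all genes, and 1 higher (Angptl4), against 7.64%. Ppara, having passed the filter through the untreated arrays alone, could only be lower. Without the genotype covariate 8 members reached that level, against 17.2% of all genes. In that same fit 15 did so without the untreated WT array, against 22.1%, and 2 without the KO DSS array, against 7.42%.

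The comparison of KO with WT asks whether loss of Adamts12 went with another level of these genes. Without DSS, 4 of 31 members were at least 2-fold higher in KO (Acads, Acaa2, Acaa1b and Ppara), against 3.42% of all genes, and 0 were lower, against 5.96%. Acaa1b, Cd36 and Pdk4 could only be higher here, having passed the filter through the untreated KO array alone. The median difference was 0.45 over the members and -0.01 over all genes, and 23 of 31 lay above 0. Among the 17 mitochondrial enzymes, 16 lay above 0, with a median of 0.52 and the exception of Eci2. With DSS, the median over the members was -0.14, with 12 above and 19 below 0. There 1 of 31 was at least 2-fold higher (Angptl4), against 4.18% of all genes, and 1 lower (Pck1), against 1.21%. Limma's test of KO against WT, with treatment as a covariate, put 0 members and 0 genes under an adjusted p of 0.05. The single member at an unadjusted p under 0.05 was Pck1 (difference -1.16, SE 0.29, lower with and without DSS, adjusted p = 1.0), where 1.45% of all genes reached that level (0.772% lower and 0.673% higher). Without the treatment covariate 0 members did, against 0.821% of all genes. In that same fit 6 did so without the KO DSS array, against 5.18%, and 1 without the untreated KO array, against 3.52%. The untreated KO array enters both this comparison and the DSS difference in KO, so a high value on it raises the first and lowers the second.

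**Figure D3:**
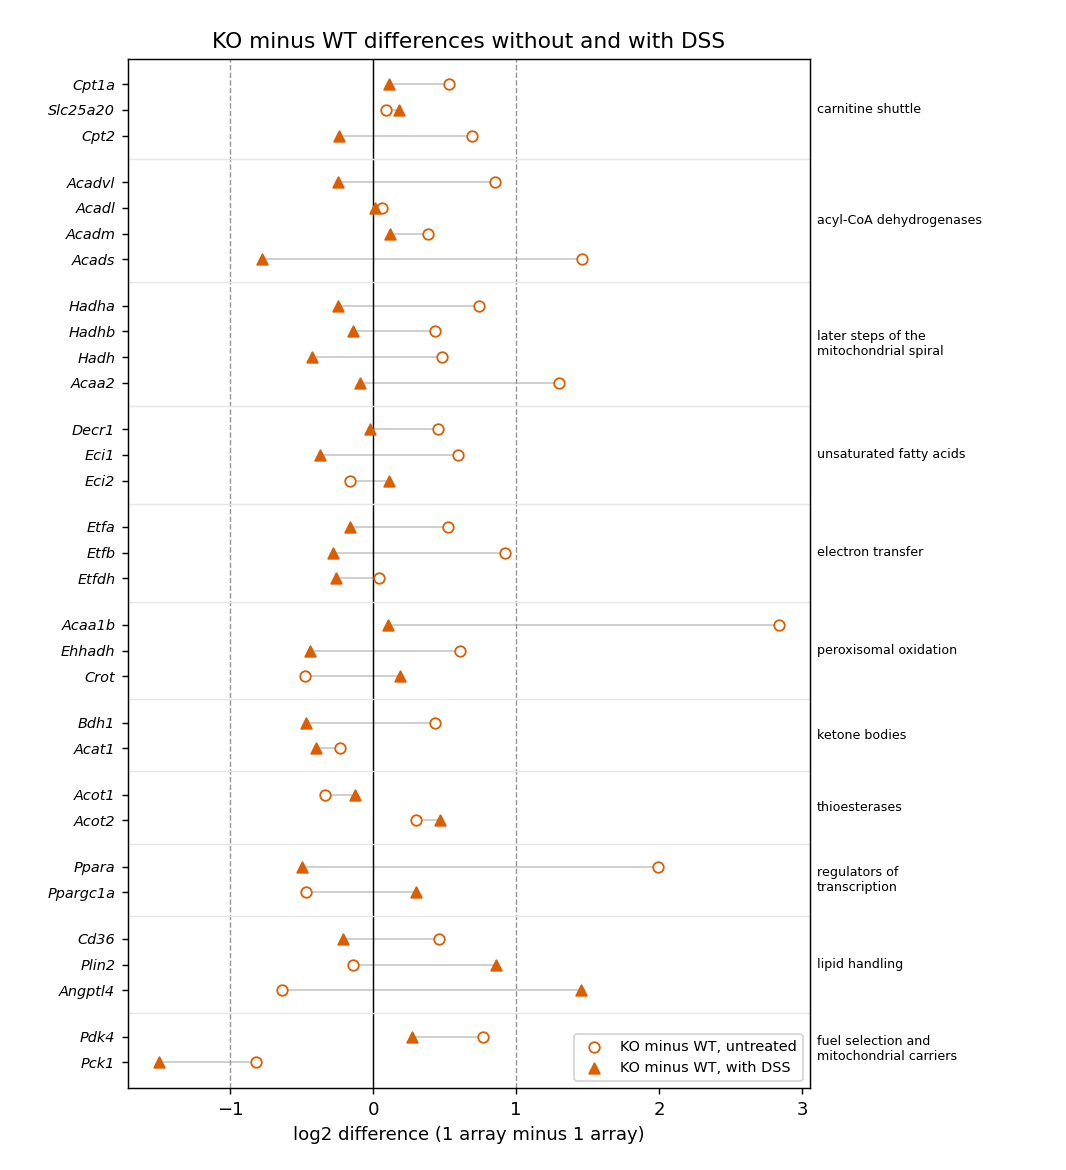
KO minus WT log2 difference for the 31 genes kept, without DSS (open circles) and with DSS (filled triangles), with 2-fold marked by dashed lines. Most open circles lie right of 0 and most triangles lie near 0, while Pck1 lies left of 0 and Angptl4 changes side.

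The other genes of the pathway were described from 12 lists, and adjusted p values under 0.05 were reached by 0 genes of any of them for DSS in limma. The filter kept 4 of their genes (Acot4, Vnn1, Ucp3 and Fbp1) through the untreated KO array alone, so these could only be lower with DSS in KO. Among 5 kept genes of ketone body and short-chain metabolism, 3 were at least 2-fold lower with DSS in both genotypes, against 1.32% of all genes. Slc5a8, the sodium-coupled butyrate transporter of colonocytes, stood at 8.95 and 7.71 on the untreated WT and KO arrays and at 6.81 and 6.46 on the WT and KO DSS arrays. The acetyl-CoA synthetase genes Acss1 (-1.08 in WT, -1.64 in KO) and Acss2 (-1.61 in WT, -1.07 in KO) were lower as well. For Slc5a8, Acss1 and Acss2, both DSS arrays lay below both untreated arrays. Oxct1, which starts the use of ketone bodies, had DSS differences of -0.93 (WT) and 0.10 (KO). The 10 colonocyte markers had mean levels of 8.82 and 7.83 on the untreated WT and KO arrays and of 8.02 and 7.87 with DSS. Their part in the Slc5a8 values, which were highest on the same array, was not tested.

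Among 13 genes of fatty acid activation and binding, Acsl3, an acyl-CoA synthetase, was at least 2-fold lower with DSS in both genotypes (-1.23 and -1.05), against 1.32% of all genes. The KO pair had 5 at least 2-fold lower (Acsl3, Slc27a1, Slc27a4, Fabp2 and Fabp6), against 6.67% of all genes, and 2 higher (Acsl4, at 2.33, and Fabp5), against 10.7%. With the untreated WT array as the control, 3 were lower on the KO DSS array (Acsl3, Slc27a2 and Fabp2), against 5.03% of all genes, and 0 higher, against 6.11%. Slc27a2 passed the filter through the untreated arrays alone and could only be lower in this comparison. Fabp2 and Fabp6, fatty acid and bile acid binding proteins of the small intestine, stood at 10.62 and 6.15 on the untreated KO array and at 6.72 and 4.13 on the untreated WT array. Both are also among the position markers. Fabp2 had the widest differences of the list, 1.35 (WT) and -6.11 (KO) with DSS and -3.56 for KO against WT with DSS. For Fabp6 the DSS differences were -0.70 and -2.82. Fabp5, an epidermal-type binding protein, had DSS differences of 0.34 (WT) and 1.90 (KO). Among 17 other mitochondrial acyl-CoA enzymes, Acsm3 alone was at least 2-fold lower in WT, and 4 were in KO (Echs1, Decr2, Pcca and Pccb), with medians of -0.29 and -0.74. The shares of all genes at least 2-fold lower were 4.94% in WT and 6.67% in KO. The propionyl-CoA carboxylase subunit genes Pcca (-0.52 in WT, -1.27 in KO) and Pccb (-0.80 and -1.21) had the largest mean differences, with Decr2 (-0.48 and -1.14) and Acot13 (-0.50 and -0.98). Against the untreated WT array, 3 were at least 2-fold lower on the KO DSS array (Pcca, Pccb and Acsm3), against 5.03% of all genes, with a median of -0.66.

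Of 13 further peroxisomal genes, 0 were at least 2-fold apart with DSS in either genotype, with medians of -0.06 in WT and -0.53 in KO. Acaa1a differed by -0.18 and -0.80, Scp2 by -0.35 and -0.76, Amacr by -0.48 and -0.85 and catalase (Cat) by -0.98 and -0.02. Against the untreated WT array, Amacr alone was at least 2-fold lower on the KO DSS array (-1.68), against 5.03% of all genes. It was also the only one of the list 2-fold apart for KO against WT with DSS (-1.20), where 1.21% of all genes were lower and 4.18% higher. Of 17 further regulators, the WT pair had 1 (Esrrg) at least 2-fold lower with DSS and the KO pair 6 (Pparg, Rxra, Ppargc1b, Hnf4a, Nr1h4 and Sirt3), with medians of 0.01 and -0.30. The shares of all genes were 4.94% and 6.67%. Against the untreated WT array, Esrrg alone was at least 2-fold lower on the KO DSS array, against 5.03% of all genes, and none of the 6 was. Esrrg passed the filter through the untreated WT array alone and could only be lower elsewhere. Ppargc1b, a relative of Ppargc1a, stood at 7.62 and 8.13 on the untreated WT and KO arrays and at 7.63 and 6.88 with DSS. Unlike Ppargc1a, it was level in WT. Hnf4a, a receptor of enterocyte identity, differed by -0.30 and -1.0, Sirt3 by -0.49 and -1.05, and Esrrg by -1.90 in WT and 0.68 in KO.

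Of 10 kept genes in a list of other PPAR targets, 3 were at least 2-fold higher on the untreated KO than on the untreated WT array, against 3.42% of all genes. None was 2-fold lower, against 5.96%. The 3 were the pantetheinase gene Vnn1 (2.82), the P450 gene Cyp4f14 (1.56) and Mgll (1.25). The DSS differences were 0.46 (WT) and -2.20 (KO) for Vnn1, and -0.41 and -3.44 for Cyp4f14. The KO DSS value minus the untreated WT value was 0.62 for Vnn1 and -1.88 for Cyp4f14. Vnn1 passed the filter through the untreated KO array alone and could only be higher there than on the untreated WT array. Txnip differed by -1.01 and -0.58, and Plin5 by 0.20 and 0.22. Among 12 genes of lipid storage and lipolysis, lipoprotein lipase (Lpl), which Angptl4 inhibits, stood at 4.27 and 6.32 on the untreated WT and KO arrays and at 5.68 and 6.66 on the WT and KO DSS arrays. In the WT pair Lpl and Agpat2 exceeded 2-fold with DSS, against 5.82% of all genes. In the KO pair 0 of the 12 were 2-fold apart, where 6.67% of all genes were lower and 10.7% higher. Against the untreated WT array, Lpl, G0s2 and Agpat2 were at least 2-fold higher on the KO DSS array, against 6.11% of all genes. G0s2 passed the filter through the KO arrays alone and could only be higher in this comparison. Agpat2 differed by 1.06 and 0.32, G0s2 by 0.00 and 0.88 and Pnpla2 by -0.28 and -0.69. The 9 measured adipocyte markers had mean levels of 3.30 and 4.26 on the untreated WT and KO arrays and of 4.20 and 3.61 on the WT and KO DSS arrays, with Lep above background on none and Adipoq at 2.50, 4.54, 5.01 and 2.14 in the order untreated WT, untreated KO, WT DSS and KO DSS. Lpl is itself in that list. Their part in the values of Lpl, Plin2 and Cd36 was not tested. Of 12 fatty acid synthesis genes, 0 were at least 2-fold apart with DSS, with Elovl5, Elovl6, Srebf1 and Acly between -0.59 and 0.32 in the 2 genotypes. The shares of all genes were 4.94% lower and 5.82% higher in WT, and 6.67% and 10.7% in KO.

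Genes of pyruvate use included Pdk2, a pyruvate dehydrogenase kinase, which was lower with DSS by almost the same amount in each genotype, from 5.89 to 4.24 in WT and from 5.93 to 4.20 in KO. Of 12 kept genes of that list, Pdk2 and Pcx were at least 2-fold lower in WT, Pdk2 and Fbp1 in KO, and Pdp1 was higher in KO. The shares of all genes were 4.94%, 6.67% and 10.7% in the same order. Against the untreated WT array, Pdk2 and Pcx were at least 2-fold lower on the KO DSS array, against 5.03% of all genes. Fbp1, a gluconeogenic enzyme, passed the filter through the untreated KO array alone and differed by -0.37 and -1.27, Pdp1 by -0.29 and 1.48 and the pyruvate carrier subunit Mpc1 by -0.42 and -0.66.

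For other mitochondrial pathways, the 20 respiratory chain genes had medians of 0.30 for KO against WT without DSS, -0.01 for DSS in WT and -0.56 for DSS in KO, and 0 of 20 were at least 2-fold apart. Of all genes, 5.96%, 4.94% and 6.67% were at least 2-fold lower in these comparisons, and 3.42%, 5.82% and 10.7% higher. Cox4i1, Cox5b, Ndufv1 and Atp5o differed by -0.14 to -0.04 in WT and by -0.85 to -0.68 in KO with DSS. For 17 tricarboxylic acid cycle genes the medians were 0.17, -0.01 and -0.42, and Sdhb, at -1.0 with DSS in KO, was the only one 2-fold apart. Idh2 and Suclg2 differed by -0.87 and -0.91 there, and Dlst by 0.24. The 11 glycolysis genes had medians of 0.01, 0.11 and 0.16, and in the KO pair Hk2 and Pgk1 exceeded 2-fold (1.43 and 1.10, against 0.75 and 0.50 in WT). Pgam1 differed by 0.31 and 0.79, and Pfkl, at least 2-fold lower in KO, by -0.02 and -1.17. Against the untreated WT array, 0 genes of these 3 lists were 2-fold apart on the KO DSS array, where 5.03% of all genes were lower and 6.11% higher. Whether the medians of these lists differ from that of the oxidation enzymes was not tested.

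**Figure D4:**
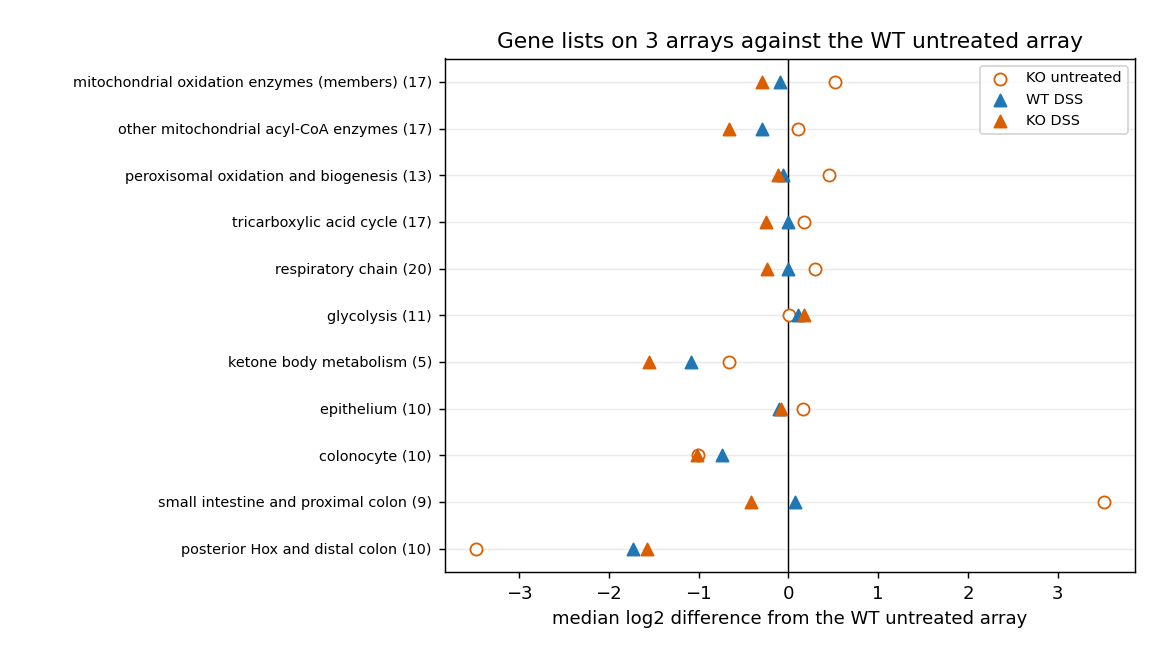
Median log2 difference from the untreated WT array for gene lists (rows, with the number of genes kept), on the untreated KO (open orange circles), WT DSS (blue triangles) and KO DSS (orange triangles) arrays. The untreated KO array lies at 0.52 for the mitochondrial oxidation enzymes, at 3.51 for small intestine and proximal colon markers and at -3.48 for posterior and distal markers.

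Where a member had other probe sets above the filter, they were compared with the chosen one. There were 21 such probe sets of 13 genes. All 21 agreed in sign, or had a difference of 0, for DSS in WT, 15 of 21 did for DSS in KO and for KO against WT without DSS, and 14 of 21 for KO against WT with DSS. The 6 that disagreed for DSS in KO belonged to Cpt1a, Hadhb, Acat1 and Cd36. For Ppara, Ppargc1a, Pck1, Acaa2 and Hadh, every probe set above the filter was lower with DSS in both genotypes.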

How the data were processed

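Distal colon RNA from 4 mice, 1 per group, had been hybridised to 1 array each. The deposited table held log2 values for 45101 probe sets, from 0.16 to 13.23, with array medians of 3.42 to 3.46. The log base was inferred: read as natural logs, the brightest probe set would exceed 65535, the limit of a 16-bit scanner. The authors' summarisation and normalisation of the deposited log2 values are not given in the sources used here. Precision is limited by having 4 arrays.

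Gene symbols came from the platform annotation and were updated by gene number through RefSeq (GRCm38.p6). Of them, 34945 had 1 symbol (34741 matched), 932 had several, 9160 were unnamed and 64 were controls. Only those with 1 symbol were used. Values at or under 1.39, the highest of 9 Y-linked probe sets on these Xist-bright arrays, were read as not above background, and a difference from such a value is a bound.

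Pairs of arrays were compared by log2 difference without a test. DSS and genotype effects were tested over 4 arrays with limma 3.58.1 in R 4.3.3 (lmFit, eBayes with trend, two-sided, Benjamini-Hochberg over 12177 genes, threshold 0.05), with 1 residual degree of freedom and a prior of 2.68 (median). With 1 mouse per group, a gene's own residual is how far an effect differed between the levels of the other factor. Through the prior, the SE mixes that residual with those of other genes of like brightness. It is therefore not the gene's own disagreement alone, and it measures no spread between mice of a group. The code was tested on simulated data. Other tools were Python 3.11.15, pandas 2.3.3 and matplotlib 3.10.9.

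All members are named. Of other lists, up to 4 genes with the largest mean DSS difference are named, and every gene behind a count of at most 5. The promoter search was chosen after the values were seen. The members and lists were chosen with earlier results of these data known. Alternatives covered scaling, filter, choice of probe set, covariate, trend and leaving out each array.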

Additional observations from a re-analysis of the deposited data

Results flagged for a closer look

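Some members differed in opposite directions in the 2 genotypes or treatments, by at least 2-fold between them. With 1 array per group, none of these differences was tested. The DSS difference went one way in WT and the other in KO for Acads, Acaa1b, Etfb and Plin2. The DSS difference in KO minus that in WT was -2.24 for Acads, -2.74 for Acaa1b (a size of at least 2.51, since its untreated WT value was not above background), -1.20 for Etfb and 1.00 for Plin2. The KO minus WT difference changed sign with DSS for Acads, Etfb and Plin2 by these same amounts. It also changed sign for Ppara (-2.49), Acaa2 (-1.39), Acadvl (-1.10), Ehhadh (-1.05) and Angptl4 (2.09), each value being the difference with DSS minus that without. The untreated KO array held the highest value for all of these genes but Plin2 and Angptl4.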

How the results depend on the processing

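Counts and medians over the members were computed under 99 combinations of result and alternative. Of these, 90 stayed within a set limit (counts within 1.5 times, medians within 0.1). The 90 include limma counts at an adjusted p under 0.05, which were 0 in every setting, and other counts of 0. Their number is therefore no measure of how firm the results are. The untreated WT array as the control cut the members at least 2-fold lower with DSS in KO from 10 to 4, moved the median from -0.72 to -0.29 and turned the sign of Acaa1b to 0.85, a bound of at least 0.62 since its untreated WT value was not above background. Quantile normalization moved the median to -0.86 for DSS in KO and to 0.56 for KO against WT without DSS. The mean over probe sets left 0 members at least 2-fold higher with DSS in KO, and 0 higher and 0 lower for KO against WT with DSS. Leaving out probe sets able to match several transcripts, and with them the Angptl4 probe set above background, gave 0 higher in either comparison. Limma called 0 members at an adjusted p under 0.05 in every setting run, including leaving out each array in turn, and 1 gene of all tested for DSS under quantile normalization and without the covariate. At an unadjusted p under 0.05, leaving out 1 array, in fits that also lack the covariate, gave 2 to 15 members for DSS and 0 to 6 for genotype, against 8 and 0 with all arrays and no covariate. No paired analysis was possible because each group had 1 array, from 1 mouse. Signal over background limits Fabp1, Acaa1b, Cd36 and Pdk4, which lay near or below the array medians. Ppara lay below them on the DSS arrays.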
